A study of Mus musculus with 8 samples.

Results

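The genes described here encode subunits of the GABA-A receptor: Gabra2, Gabra3, Gabra4 and Gabra5 (alpha subunits), Gabrb1 and Gabrb2 (beta subunits) and Gabrd (the delta subunit). They were chosen by name from the receptor family, as 7 of 19938 genes that the array annotation pairs with a probe set of exactly 1 symbol, and each gene was represented by its probe set of highest mean over all 8 arrays. The RNA was that of the whole brain, taken at postnatal day 70 from C57BL/6J males after subcutaneous injection of their mothers during pregnancy. Early ethanol mothers received 2 doses of ethanol at 2.5 g/kg in saline on each of gestational days 8 and 11, and early saline mothers received saline alone. Late ethanol mothers received the same doses on gestational days 14 and 16, and late saline mothers received saline. Each of the 4 groups was measured on 2 arrays. For an array, RNA of 3 males that were not littermates was pooled, so that a value describes a pool of brains and not an animal.

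GABA-A receptors are chloride channels built from subunits that ring a central pore, and they carry most fast inhibition in the adult brain. A typical receptor at a synapse joins alpha, beta and gamma subunits, while receptors with a delta subunit lie mainly outside the synapse and respond to low ambient GABA. The alpha subunit sets much of a receptor's location and its response to benzodiazepines, and neurosteroids and ethanol are among the compounds known to act on the family. The comparison asked whether the adult level of these transcripts differed after ethanol before birth, at either timing.

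Most subunit genes lie in clusters. Of the 16 subunit genes analysed here, Gabrg1, Gabra2, Gabra4 and Gabrb1 lie on chromosome 5, Gabrg3 and Gabra5 on chromosome 7, Gabra6, Gabrb2 and Gabrp on chromosome 11, and Gabre, Gabra3 and Gabrq on the X chromosome. Gabrd lies on chromosome 4, which also holds Gabrr1 and Gabrr2, and Gabrr3 lies on chromosome 16. RefSeq promoter windows of 300 bases, from 250 before to 50 after a transcription start in build GRCm38.p6, were found for 6 of the 7 genes. The windows of the 3 chromosome 5 genes and of Gabra5 are shown because they place neighbours of one cluster side by side and differ in the CpG pairs at which DNA can be methylated, which are in capitals. The Gabrb1 window is chr5:71657671-71657970 on the + strand, the Gabra4 window chr5:71658259-71658558 on the - strand, the Gabra2 window chr5:71095800-71096099 on the - strand and the Gabra5 window chr7:57510010-57510309 on the - strand.
Gabrb1: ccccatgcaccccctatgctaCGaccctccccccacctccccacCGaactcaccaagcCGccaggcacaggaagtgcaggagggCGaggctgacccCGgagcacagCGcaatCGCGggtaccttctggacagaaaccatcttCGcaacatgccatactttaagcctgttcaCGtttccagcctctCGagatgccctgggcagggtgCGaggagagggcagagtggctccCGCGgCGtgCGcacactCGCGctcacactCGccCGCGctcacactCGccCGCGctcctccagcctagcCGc
Gabra4: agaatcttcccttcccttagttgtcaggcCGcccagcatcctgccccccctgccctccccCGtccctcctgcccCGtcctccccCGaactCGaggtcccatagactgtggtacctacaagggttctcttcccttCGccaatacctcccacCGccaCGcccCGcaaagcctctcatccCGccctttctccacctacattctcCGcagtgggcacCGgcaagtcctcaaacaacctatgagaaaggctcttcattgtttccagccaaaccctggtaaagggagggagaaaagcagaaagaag
Gabra2: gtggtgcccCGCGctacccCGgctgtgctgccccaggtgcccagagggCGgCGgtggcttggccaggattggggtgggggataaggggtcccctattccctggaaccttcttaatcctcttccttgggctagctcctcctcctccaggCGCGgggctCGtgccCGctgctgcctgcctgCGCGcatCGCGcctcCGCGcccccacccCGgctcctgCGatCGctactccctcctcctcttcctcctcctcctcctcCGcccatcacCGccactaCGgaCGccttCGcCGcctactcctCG
Gabra5: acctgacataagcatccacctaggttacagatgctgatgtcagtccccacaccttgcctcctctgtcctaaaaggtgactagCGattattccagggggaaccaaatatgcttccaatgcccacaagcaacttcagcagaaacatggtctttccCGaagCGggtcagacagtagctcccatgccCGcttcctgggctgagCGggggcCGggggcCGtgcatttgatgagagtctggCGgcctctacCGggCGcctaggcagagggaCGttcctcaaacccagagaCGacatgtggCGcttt

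The Gabrb1 and Gabra4 starts of the windows shown face each other 387 bases apart on opposite strands, each downstream of the other. The Gabrb1 and Gabra2 windows shown each held 25 CpG, more than 81.6% of the 32851 mouse windows of this length, while Gabra4 held 12 and Gabra5 13. Another annotated Gabrb1 window, not shown, held 9. Both annotated windows of Gabra3 held 0 CpG, and those of Gabrb2 held 9 to 11. Letters of common promoter motifs were searched on both strands. The CCAAT box (CCAAT, in 37.4% of all windows) occurred in the windows shown of Gabra2, Gabra4 and Gabra5, and the GC box (GGGCGG, in 35.7%) in those of Gabra2 and Gabra4. The TATA box (TATAAA, in 13.6%) occurred in windows of Gabra3 and Gabrb2 and in none of those shown. Methylation was not analysed here, so these features stand beside the expression values as description.

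Values are given on the log2 scale of the deposited table, on which a difference of 1 is a doubling. Array medians ran between 6.74 and 6.84 early and between 7.21 and 7.3 late, so values are set side by side only within a timing, and never between genes. All 7 genes lay above background in all 8 arrays. Background was the 95th percentile of 1210 probe sets of olfactory and vomeronasal receptors, which was 6.49 for the early and 7.46 for the late arrays. Taken array by array, the late percentile was highest in late ethanol replicate 1, at 7.7 against 7.28 to 7.5. That array also had the fewest tested probe sets above background, 48.5% against 51.1% to 53.8% in the other late arrays. In the early ethanol arrays, the 13 olfactory bulb markers averaged 7.86 and 8.08, against 8.37 and 8.45 in early saline. Of the 7 nasal tissue markers, 5 were higher in early ethanol and 2 lower, namely Omp (-0.66) and Stoml3 (-1.59). The 7 averaged 8.24 and 6.95 in early ethanol and 6.55 and 6.61 in early saline, so that early ethanol replicate 1 stood apart from the other arrays. Without it the early differences of the 7 genes ran between -0.1 for Gabra5 and 0.15 for Gabrb2, with Gabra3 turning to -0.07 and Gabra2 to 0.01. In a whole-brain pool, fewer cells of a type and less RNA per cell cannot be told apart.

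Across the 7 genes, Gabrd after late exposure was the only one to pass the study's thresholds in either timing, a fold of 1.2 with a p under 0.05 before adjustment. After early exposure, 0 of 7 passed, against a background of 0.923% of all 23410 probe sets tested. After late exposure 1 of 7 passed, against 1.16% of all probe sets (0.722% for lower in ethanol alone). For the difference between the timings 0 of 7 passed, against 1.99%. After adjustment, 0% of probe sets passed in any of the 3 comparisons, and the adjusted p was 1 for each of the 7 genes in limma. Neither ethanol above both saline arrays (7.5% of all probe sets) nor ethanol below both (18.9%) occurred for any of the 7 genes early. Before adjustment, 401 probe sets had p under 0.05 in the early comparison, 583 in the late and 483 in the difference. Errors and intervals are those of the limma fit over all 8 arrays, since an exact test of 2 arrays against 2 cannot give a p below 0.333.

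**Figure D1:**
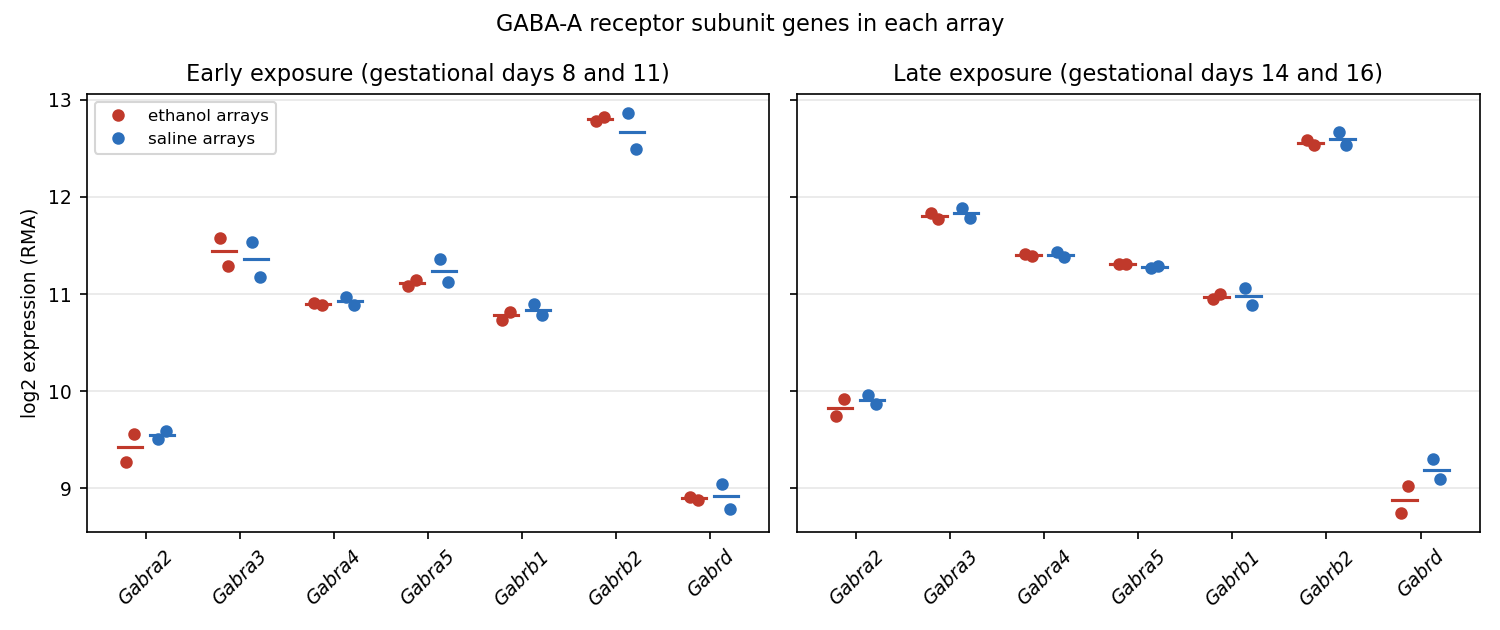
Log2 expression (vertical axis, RMA) of the 7 subunit genes (horizontal axis) in every early array (left) and late array (right), with ethanol in red, saline in blue and bars marking group means. Only Gabrd in the late panel has both ethanol points below both saline points, by little for the nearest pair, and heights are comparable neither between genes nor between panels.

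Among the alpha subunits, the early and late ethanol arrays lay close to their saline arrays. Gabra2, whose subunit carries much of the sedating and anxiety-relieving action of benzodiazepines on limbic circuits (probe set 10530406), was at 9.27 and 9.56 in early ethanol arrays, against 9.51 and 9.59 in early saline arrays. The low value was that of replicate 1, and the groups overlapped. The difference was -0.13 (SE 0.11, 95% interval -0.39 to 0.13), and 0.01 without early ethanol replicate 1. In late ethanol Gabra2 was at 9.74 and 9.92, against 9.96 and 9.87 in late saline, a difference of -0.08 (SE 0.11, interval -0.34 to 0.18). These groups overlapped as well.

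Gabra3, an alpha subunit of monoamine neurons, cortex and the thalamic reticular nucleus (probe set 10604961), was at 11.58 and 11.29 in early ethanol and 11.54 and 11.18 in early saline. Within each group the arrays lay further apart (0.3 in ethanol, 0.37 in saline) than the group means did, and the difference was 0.08 (SE 0.14, interval -0.24 to 0.4). In late ethanol it was at 11.83 and 11.77, against 11.89 and 11.78 in late saline, a difference of -0.03 (SE 0.14). The late groups overlapped.

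Gabra4, which pairs with delta in receptors outside synapses of the forebrain (probe set 10530421), had the narrowest intervals of the 7 genes. It was at 10.91 and 10.89 in early ethanol and 10.97 and 10.89 in early saline, and at 11.41 and 11.39 in late ethanol and 11.43 and 11.38 in late saline. All 4 arrays of a timing lay within 0.08 of one another, and the groups overlapped. The differences were -0.03 early (interval -0.21 to 0.14) and -0.01 late (interval -0.18 to 0.17), both inside the 1.2-fold limit of 0.26.

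Gabra5, an alpha subunit concentrated in the hippocampus and tied to tonic inhibition there (probe set 10563872), was at 11.08 and 11.14 in early ethanol, against 11.36 and 11.12 in early saline. Saline replicate 1 alone was high. The difference was -0.13 (SE 0.09, interval -0.35 to 0.08) when all arrays were used. It was -0.01 without saline replicate 1 and -0.26 without saline replicate 2, in neither case past both thresholds. In late ethanol it was at 11.31 and 11.31, against 11.27 and 11.29 in late saline. Both late ethanol arrays thus lay above both saline arrays, as they did for 12.7% of all probe sets, but the difference was 0.03 (SE 0.09, interval -0.18 to 0.25).

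The beta subunits contribute to the GABA binding site and to the anchoring of the receptor. Gabrb1 (probe set 10522324) was at 10.73 and 10.82 in early ethanol and 10.9 and 10.78 in early saline, a difference of -0.06 (SE 0.09, interval -0.27 to 0.15). In late ethanol it was at 10.95 and 11 and in late saline at 11.06 and 10.89, a difference of 0 (SE 0.09, interval -0.21 to 0.21). The groups overlapped in both timings, with the late ethanol arrays between the saline arrays.

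Gabrb2, the beta subunit of the most abundant synaptic receptors, had 3 probe sets. The one of highest mean (10375261) was at 12.78 and 12.82 in early ethanol and 12.86 and 12.49 in early saline, and at 12.59 and 12.54 in late ethanol and 12.67 and 12.53 in late saline. Early saline replicate 2 was the low array, and the groups overlapped in both timings. The differences were 0.13 early (SE 0.12, interval -0.15 to 0.41) and -0.04 late (SE 0.12, interval -0.32 to 0.24). Without early saline replicate 1, the early difference was 0.31 and past the study's thresholds (adjusted p = 1 in limma). The other probe sets gave early differences of -0.02 (10375245) and 0.15 (10375259) and late differences of 0.02 and 0, so they did not all take the same sign.

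Gabrd, whose subunit marks receptors outside the synapse in cerebellar granule cells, dentate gyrus, thalamus and cortex (probe set 10519124), was lower in both late ethanol arrays. It was at 8.75 and 9.02 in late ethanol arrays, against 9.3 and 9.09 in late saline arrays. The lowest value was that of late ethanol replicate 1, the late array with the highest background. The groups did not overlap, as was so in this direction for 15.7% of all probe sets, although late ethanol replicate 2 came close to late saline replicate 2. The means were 8.88 ± 0.19 in late ethanol and 9.19 ± 0.15 in late saline (SD, n = 2 each). The difference was -0.31 (SE 0.13, interval -0.6 to -0.02), a fold of 0.807 for ethanol over saline, past the study's thresholds but with adjusted p = 1 in limma. It rested on single arrays: the difference was -0.17 without late ethanol replicate 1 and -0.2 without late saline replicate 1, both short of the thresholds, and -0.45 without late ethanol replicate 2. It also fell short of the thresholds, at -0.31, in the fit to the 4 late arrays, in the unmoderated test and with the replicate number as a block.

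After early exposure, Gabrd was at 8.91 and 8.88 in ethanol and 9.04 and 8.79 in saline. The ethanol arrays lay between the saline arrays, and the difference was -0.02 (SE 0.13, interval -0.31 to 0.27). The early difference minus the late one was 0.29 (SE 0.18, interval -0.12 to 0.7, adjusted p = 1 in limma), so the 2 timings were not shown to differ for Gabrd. For the other 6 genes this contrast ran between -0.17 for Gabra5 (SE 0.13) and 0.17 for Gabrb2 (SE 0.17), with every interval including 0.

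**Figure D2:**
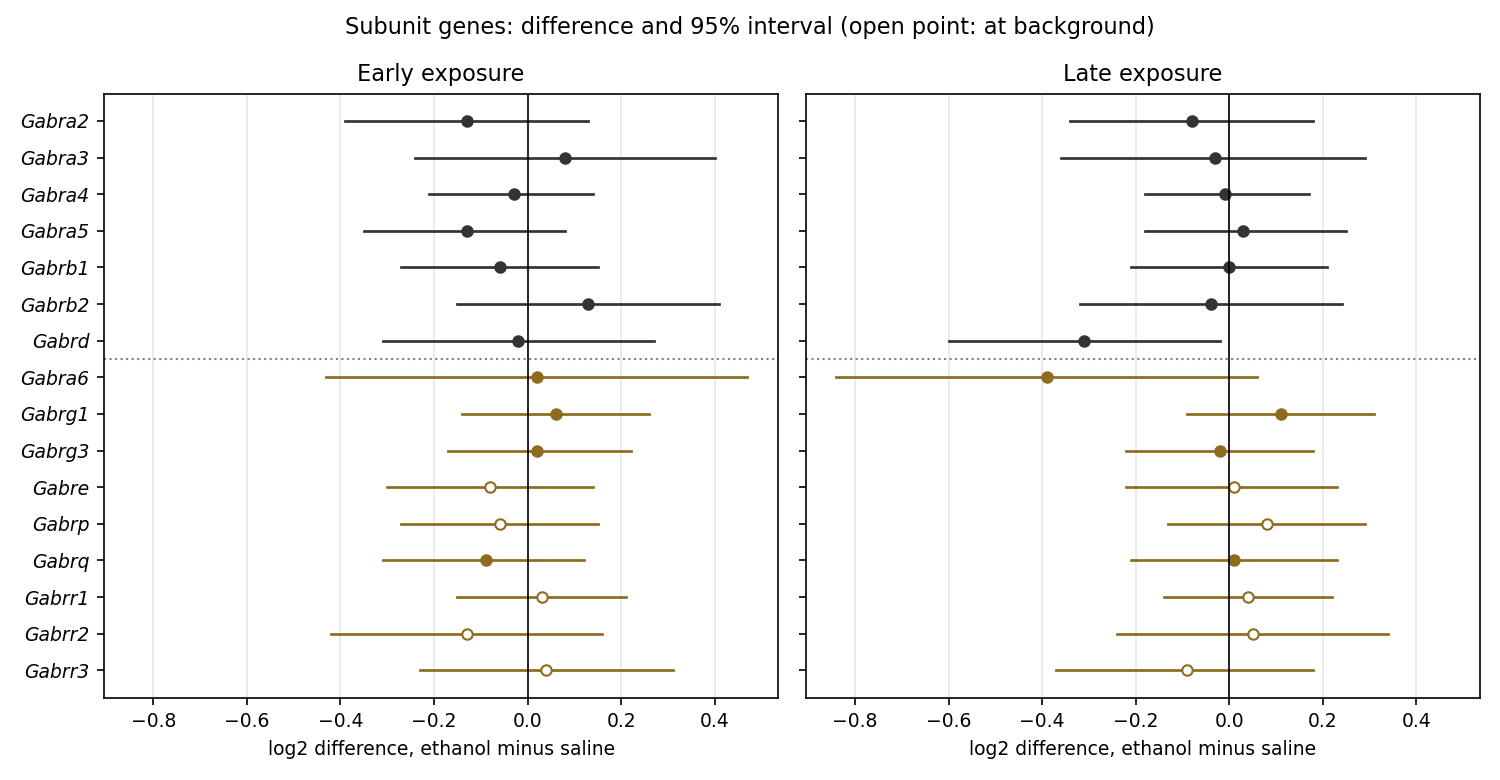
Log2 difference of ethanol minus saline (horizontal axis) with its 95% interval for the 7 subunit genes (dark) and the other 9 (brown, below the dotted line), early at left and late at right, with open points for genes at background. Of all 16 genes only Gabrd in the late panel has an interval that leaves out 0 (-0.6 to -0.02), and Gabra6 has the widest.

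The direction of the 7 genes was mixed early (2 higher and 5 lower in ethanol) and mostly lower late (1 higher and 6 lower). Of all probe sets, 59.8% were lower early and 52.7% late. The late count of lower genes includes Gabrb1, at a fold of 0.997. It turned with 2 scalings, to 4 higher and 3 lower after quantile normalization over all 8 arrays and to 5 higher and 2 lower after cyclic loess. Centring on the median left it at 1 higher and 6 lower. The median difference of the 7 genes was -0.034 in both timings, against -0.02 early and -0.0067 late for all probe sets. Early saline replicate 1 had the highest value of its timing for 5 of the 7 genes and late saline replicate 1 for 6 of 7. With each probe set centred on the mean of its timing, these 2 arrays also had the highest median over all probe sets tested, 0.019 and 0.031. Their medians before centring, 6.74 and 7.25, were not the highest of their timing. The second ethanol replicate of each timing and late saline replicate 2 had the highest value for 0 genes. The intervals limit what remains undetected: they stayed within a 1.5-fold change in either direction for all 7 genes early and for 6 late (Gabrd being the exception), but within 1.2-fold only for 1 gene early and 3 late. Over the 28 pairs of arrays of a gene and group, replicates lay 0.01 to 0.37 apart, with a median gap of 0.09.

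Of the other subunit genes, 9 of 12 were analysed, and none passed the thresholds in any comparison. Gabre, Gabrp and the rho subunits Gabrr1, Gabrr2 and Gabrr3 lay at background, while Gabra6, Gabrg1, Gabrg3 and Gabrq lay above it. Gabra6, the alpha subunit that is nearly confined to cerebellar granule cells, where it pairs with delta (probe set 10385310), was at 10.33 and 10.98 in late ethanol, against 11 and 11.09 in late saline. Both ethanol arrays were below both saline arrays, as for 15.7% of all probe sets, and replicate 2 was so by little. The difference was -0.39 (SE 0.19, interval -0.84 to 0.06, adjusted p = 1 in limma). Without late ethanol replicate 1 it was -0.06, and without late ethanol replicate 2 it was -0.71, past the thresholds (adjusted p = 0.55 in limma). With the replicate number as a block it was -0.39 and past the thresholds (adjusted p = 1). In early ethanol Gabra6 was at 10.77 and 10.74 and in early saline at 10.9 and 10.57, a difference of 0.02. The difference between the timings was 0.41 (SE 0.28).

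The gamma subunit genes Gabrg1, of glia and a few neuron groups, and Gabrg3 differed little. Gabrg1 was at 10.04 and 10.06 in late ethanol and 9.98 and 9.9 in late saline, a difference of 0.11, with an early difference of 0.06. Gabrg3 differed by 0.02 early and -0.02 late, and Gabrq, the theta subunit of hypothalamus and monoamine neurons, by -0.09 early and 0.01 late.

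Markers of cerebellar granule cells were also lower in the late ethanol arrays. There 4 of the 12 genes on the list passed the study's thresholds downward, against 0.722% of all probe sets. Without Gabra6, which is on the list, 10 of 11 were lower, against 52.7% of all probe sets, with a median difference of -0.28. The mean of the 11 was 9.66 and 9.92 in late ethanol arrays, against 10.04 and 10.01 in late saline arrays. The 4 that passed were Cbln1, a secreted organizer of parallel fibre synapses (-0.38), the transcription factors Zic2 (-0.38) and Eomes (-0.36), and the cadherin Fat2 (-0.4), each with adjusted p = 1 in limma. Eomes, though on the list, marks unipolar brush cells and olfactory bulb neurons rather than granule cells. As for Gabrd and Gabra6, late ethanol replicate 1, the late array with the highest background, was the lowest array for the list mean. The median was -0.1 without late ethanol replicate 1 and -0.46 without late ethanol replicate 2. After early exposure 6 of the 11 were higher and 5 lower, with a median of 0.031. Of the 12, Zic2 passed in the difference between the timings (0.7, SE 0.21, adjusted p = 1 in limma). The part of granule cell content in the Gabrd value was not tested.

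**Figure D3:**
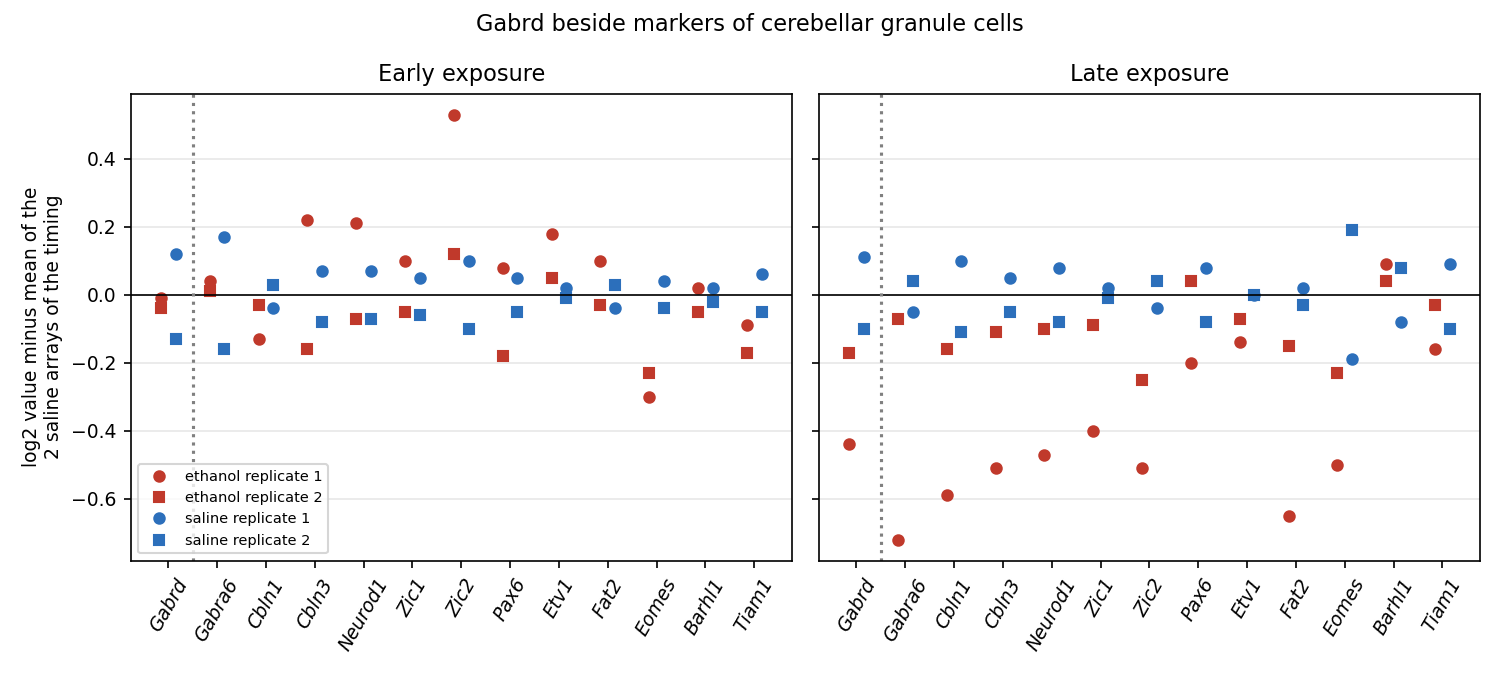
Log2 value minus the mean of the timing's 2 saline arrays (vertical axis) for Gabrd and the 12 granule cell list genes (horizontal axis). Early is at left and late at right, with circles for replicate 1, squares for replicate 2, ethanol in red and saline in blue. In the late panel the red circles of late ethanol replicate 1 lie lowest for Gabrd and most markers, with Gabra6 at 10.33 against 11 and 11.09 in saline.

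Lists of other places with Gabrd expression held no gene past the thresholds after late exposure. Of 10 hippocampal and dentate markers, 8 had lower means in late ethanol (median difference -0.045). Of 9 thalamic markers, 6 were lower, with a median of -0.065. General neuronal markers were lower in 13 of 15, with a median of -0.053. These medians compare with -0.0067 for all probe sets, of which 52.7% were lower. Other cell types were lower in the same arrays as well: 9 of 10 oligodendrocyte markers (median -0.12), 8 of 9 endothelial markers (median -0.1) and 8 of 10 astrocyte markers (median -0.074), with 0 past the thresholds. Of 7 choroid plexus markers, 4 were lower (median -0.087) and Otx2, a transcription factor of that tissue, passed at -0.29 (adjusted p = 1 in limma). Of 9 microglial markers, 5 were higher (median 0.026). Striatal markers went the other way, with 6 of 8 higher and 2 lower (median 0.022). Their part in the Gabrd value was not tested.

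Further lists covered the GABA-B receptor, GABA synthesis and breakdown, transport, scaffolds, neurosteroids and the glycine receptor. No gene of these lists passed the study's thresholds in either timing or in the difference. For each list, the gene of smallest p in each timing is given. For the GABA-B receptor (6 genes), this was the auxiliary subunit Kctd12, at -0.15 early (SE 0.11) and -0.2 late (SE 0.11). For GABA synthesis and breakdown (5 analysed), it was the synthetic enzyme Gad2 early (-0.16, SE 0.1) and the catabolic enzyme Aldh5a1 late (-0.15, SE 0.12). For transport of GABA and chloride (6 analysed), it was the chloride importer Slc12a2 early (0.18, SE 0.1) and the vesicular transporter Slc32a1 late (-0.17, SE 0.1). None of these had an adjusted p below 1 in limma. Markers of GABAergic neurons, the cells that release GABA, were lower in early ethanol for 13 of 16 (median -0.085), with 3 past the thresholds, against 0.923% of all probe sets. These were the transcription factors Dlx1 (-0.53), Dlx2 (-0.51) and Dlx6 (-0.38), which also passed in the difference between the timings, each with adjusted p = 1 in limma. Dlx6 lay at background in the late arrays. Dlx1 and Dlx2 are on the olfactory bulb list too, which was lower in the same arrays. After late exposure 11 of the 16 were lower (median -0.068) and 0 passed.

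Of 21 scaffold and trafficking genes, 14 were higher early (median 0.016) and 16 lower late (median -0.063), with 0 past the thresholds. Gabarap, which binds gamma subunits during transport, was smallest in p early (0.13, SE 0.1), and Trak1, an adaptor that moves receptors and mitochondria along microtubules, late (-0.22, SE 0.1). Trak1 was also the gene of smallest p for the difference between the timings (0.28, SE 0.14). The 6 neurosteroid synthesis genes analysed, which include the cholesterol carriers Star and Tspo beside the enzymes, all lay at background, with Cyp11a1, the first enzyme of the pathway, at -0.14 early and 0.1 late. Among 5 glycine receptor genes, Glra1 differed by 0.22 early (SE 0.12) and Glrb by -0.09 late. Beside the chromosome 7 cluster, the neighbour Nipa2 differed by -0.23 early (SE 0.09), short of the 1.2-fold limit, and Nipa1 by -0.3 late (SE 0.15), short of the limit on p. Both encode magnesium transporters.

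**Figure D4:**
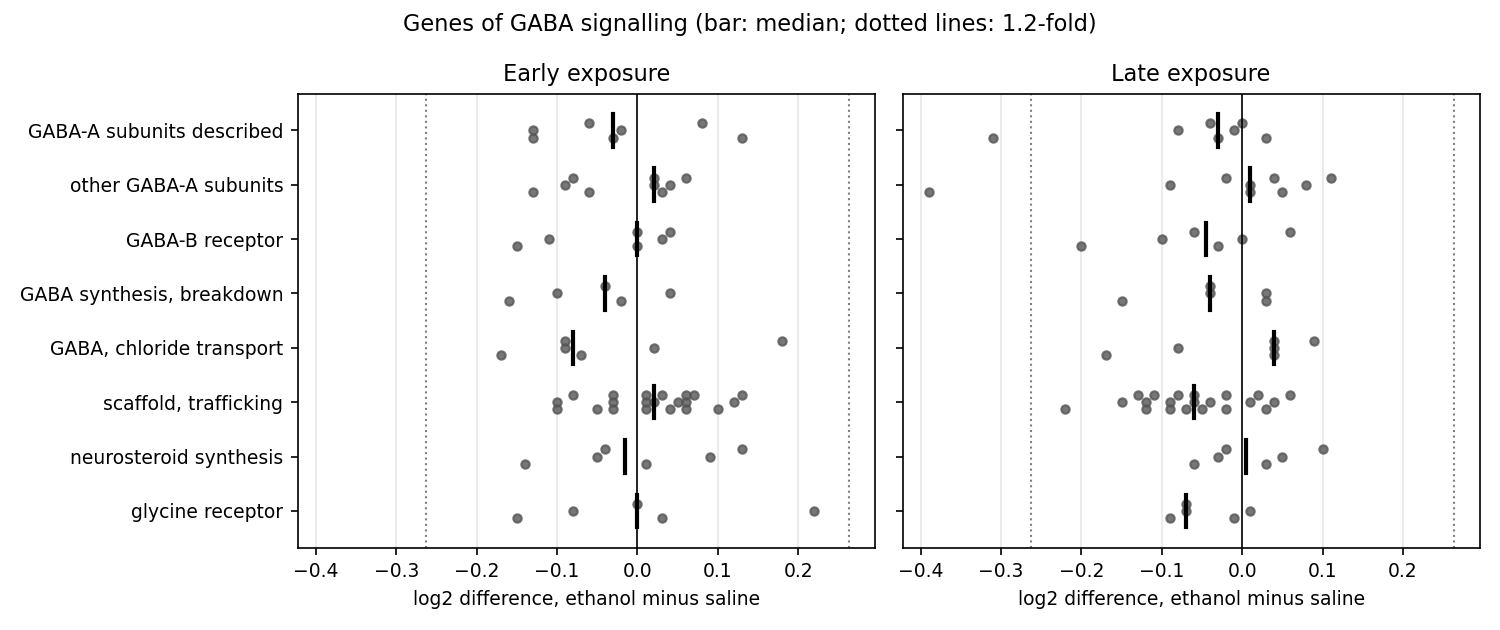
Log2 difference of ethanol minus saline (horizontal axis) for every gene (1 point each) of 8 groups of GABA signalling (vertical axis), early at left and late at right, with a bar at each group's median and dotted lines at a 1.2-fold change. Beyond the dotted lines lie only Gabrd (-0.31) and Gabra6 (-0.39), both in the late panel.

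To describe which genes moved most like the 7 subunit genes from array to array, each gene's values were centred on the mean of its timing and set against the mean centred profile of the 7. That profile was -0.02 and 0 in early ethanol arrays and 0.11 and -0.08 in early saline arrays, and -0.06 and -0.01 in late ethanol arrays and 0.08 and -0.02 in late saline arrays. It was highest in saline replicate 1 of both timings. The genes of highest Pearson r over the 8 arrays were Slc35b4 (0.994), Nup153 (0.987), Kpna6 (0.986), Wdr36 (0.982) and Tmx1 (0.98), of 10984 candidates above background. Of all candidates, 3.71% had r above 0.9 and the median r was 0.52, and arrays of 1 timing share their normalization, so the ranking is a description of these arrays.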

How the data were processed

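Whole-brain RNA was hybridized to Affymetrix Mouse Gene 1.0 ST arrays, 8 in all. Scans were read in Affymetrix Command Console, and the authors deposited log2 values made in Partek (6.6 according to the submitters' processing notes) by RMA, with GC adjustment and quantile normalization. For the late arrays these steps, and for the table the genome build, are not given in the sources. As far as the values show, each timing was normalized apart. The values were used as deposited. Of 35556 probe sets, 21789 carried 1 symbol, 1621 several and 12146 none, and the 23410 with a symbol were tested. Symbols came from GEO's platform annotation, and the 16 subunit genes analysed all matched RefSeq by symbol.

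Group means over the 8 arrays were fitted in limma 3.58.1 (R 4.3.3) with moderated variances, with Benjamini-Hochberg adjustment of p over all 23410 probe sets. The study's thresholds, an unadjusted p under 0.05 and 1.2-fold, were also used. The fit was tested on simulated data. The members, the gene lists and the alternatives were chosen with earlier results of these data known. Named were every subunit gene analysed and the 5 genes most like the members' mean profile. From each other list, genes past the thresholds or else the gene of smallest p were picked out, and not all of these are named. Results of lists beyond those named in the report are not given. P-values of the main fit rest on the spread between arrays within a group, pooled over the 4 groups and moderated over probe sets. The number of arrays limits precision. Pairs of arrays within a timing correlated at 0.988 or higher across probe sets. Alternatives were an unmoderated test, the 4 arrays of a timing alone, a replicate block, other normalizations, filters on low values, every probe set, an intensity trend, array weights, the mean of a gene's probe sets and leaving out each array. A replicate block with the late numbers crossed was added after the data were seen. Python 3.11.15 with matplotlib 3.10.9 drew the figures.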

Additional observations from a re-analysis of the deposited data

How the results depend on the processing

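The late Gabrd difference kept its direction under all 21 alternatives (-0.45 to -0.17) and passed the study's thresholds under 12. With the replicate block it was -0.31 and short of the thresholds, and Gabra6 was -0.39 and past them (adjusted p = 1 for Gabrd in limma). The labels share numbers between groups, but same-numbered arrays deviated together early (correlation 0.47) and not late (-0.46), so the numbers were not taken as pairs. Gabrd was short of the thresholds in the unmoderated test, the 4-array fit, after centring on the median (-0.33), with every probe set and without either early ethanol array, besides the arrays named in the report. No adjusted p of the 7 genes fell below 0.05 in any alternative.

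Normalization over all 8 arrays turned signs of differences near 0, and the cause was not tested. Quantile normalization gave early Gabrb2 -0.07, late Gabra3 0.01, late Gabra4 0.06, late Gabrb1 0.06 and, for the difference between timings, Gabrb2 -0.06. Cyclic loess gave early Gabrd 0.01, late Gabra3 0.02, Gabra4 0.05, Gabrb1 0.05 and Gabrb2 0.02, and 0 for Gabrb2 between timings. Leaving out 1 array at a time gave early ranges of -0.27 to 0.01 for Gabra2, -0.11 to 0.26 for Gabra3, -0.07 to 0 for Gabra4, -0.26 to -0.01 for Gabra5, -0.15 to 0.19 for Gabra6, -0.05 to 0.31 for Gabrb2 and -0.14 to 0.11 for Gabrd. The late ranges were -0.17 to 0.01 for Gabra2, -0.09 to 0.02 for Gabra3, -0.03 to 0.02 for Gabra4, -0.09 to 0.08 for Gabrb1 and -0.11 to 0.03 for Gabrb2. Between timings they were -0.19 to 0.09 for Gabra2, -0.07 to 0.3 for Gabra3, -0.07 to 0.01 for Gabra4, -0.14 to 0.03 for Gabrb1 and -0.02 to 0.35 for Gabrb2. Gabra5 between timings was -0.29 and past the thresholds without early saline replicate 2.

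The counts past the study's thresholds were 216 early, 272 late and 465 between timings. They were 60 early and 58 late in the unmoderated test, 169 late and 213 between timings without the lowest 50% of probe sets, and 669, 674 and 854 with every probe set. With late numbers crossed in the block, chosen after seeing the data, they were 564, 519 and 1099. Leaving out 1 array gave 210 to 781 early, 242 to 1750 late and 233 to 1284 between timings, and after adjustment 0 to 13, 0 to 0 and 0 to 5.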
